A study of Mus musculus with 6 samples.

Results

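Genes of nuclear receptors and their partners were followed in myotubes given Sardomozide, an inhibitor of polyamine synthesis, or DMSO. They were Hr (hairless), Thra and Thrb, Rxra and Rxrb, Vdr, Ncor1 and Dio2. These are 8 of the 24411 gene symbols counted. They were selected on read counts of these same libraries, around the difference between Sardomozide and DMSO that Hr shows, and were then listed by symbol. Their differences between the groups are therefore given as a description and no p-value is attached to them.

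The cells were C2C12 myotubes. C2C12 is an immortalised mouse myoblast line with a wild-type genotype label, and its cells fuse into multinucleated muscle fibres after a shift to low horse serum. Differentiated cultures received 10 µM Sardomozide, as its dihydrochloride, or the solvent DMSO for 72 h, with 3 libraries in each group. Sardomozide inhibits S-adenosylmethionine decarboxylase, the product of Amd1, which supplies the aminopropyl groups of spermidine and spermine. Nothing in the labels tells separate cultures from repeat libraries of 1 culture, and every p-value here refers to the spread among these 6 libraries, part or all of which may be technical.

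Thyroid hormone enters cells as the prohormone thyroxine or as active triiodothyronine, and the deiodinase encoded by Dio2 converts the first into the second inside the cell. The receptors TRα and TRβ, encoded by Thra and Thrb, bind DNA mostly as dimers with a retinoid X receptor (RXR), which is also the partner of the vitamin D receptor. Without hormone the thyroid receptors recruit corepressors such as NCoR1 and its histone deacetylase. Hairless is a further corepressor that binds thyroid, vitamin D and ROR receptors and has a histone demethylase domain. It is best known from hair follicles and from brain, and in brain its gene is a direct target of thyroid hormone. In muscle, thyroid hormone sets fibre type, calcium pumping and metabolic rate.

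Library totals ran from 25496323 to 36709804 counts. Summed CPM (counts scaled to library size, with TMM factors) of 5 myotube markers was 12676 to 13767 with DMSO and 13002 to 14191 with Sardomozide, and 0 of the 5 passed the test. The sum of 5 myoblast and cycling cell markers was 312.6 to 331 and 339 to 368 CPM, and Mki67 was called higher (edgeR's quasi-likelihood test, Benjamini-Hochberg adjusted p under 0.05 over all genes tested, the meaning of called throughout). Top2a, Cdk1, Pax7 and Myf5 were not called, with log2 fold changes of 0.22, 0.10, 0.09 and −0.15. No count of Adipoq or Plin1 was present in any library, and the 5 adipocyte markers together reached at most 0.35 CPM. The sum of 5 fibroblast markers was 2554 to 3100.5 CPM with DMSO and 2226 to 3071 CPM with Sardomozide, nearly all of it Col1a1. Of the 3 fibroblast markers tested, Dcn, which encodes a matrix proteoglycan, was called lower (18.8 ± 2.15 to 11 ± 2.37 CPM, −0.77 ± 0.139 on the log2 scale, edgeR adjusted p = 0.00187) and 0 were called higher. Pdgfra, a growth factor receptor gene, had 15 ± 1.87 and 12.2 ± 1.19 CPM and was not called. The fibroblast markers Thy1 and Lum had at most 3 and 2 counts in a library and were not tested. DMSO replicate 1 stood apart from DMSO replicates 2 and 3 on the second principal component (19.24 against −8.72 and −12.48). With all 6 libraries, 1030 genes were called higher (7.88% of those tested) and 1105 lower (8.45%). Without DMSO replicate 1, 620 genes were called higher and 706 lower. The counts were 738 and 865 without DMSO replicate 2, and 672 and 771 without DMSO replicate 3. In bulk RNA, fewer cells of a type and less RNA per cell cannot be told apart.

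Among the 7 genes with enough counts to be tested, Hr differed most. Its level was 84.3, 84.5 and 83.4 CPM in DMSO replicates 1 to 3 and 42.2, 38.1 and 36.5 CPM in Sardomozide replicates 1 to 3. All 3 Sardomozide libraries lay far under the DMSO libraries, which were nearly equal. The mean went from 84.1 ± 0.567 to 38.9 ± 2.92 CPM (SD, n = 3), so Hr fell by 53.7%, with a log2 fold change of −1.11 ± 0.057 (standard error). By the size of its log2 fold change, Hr ranked 176 among 13076 tested genes. Without DMSO replicate 1 its log2 fold change was −1.11. The 3 DMSO libraries differed by less than counting error alone would give, with a coefficient of variation of 0.674% where the counts give 2.02%. With Sardomozide the coefficient of variation was 7.51%, and the counts give 2.74%. Hr lies on the plus strand of chromosome 14 from 70552212 to 70573548 (GRCm38), and no other annotated gene overlaps it.

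Because hairless is prominent in hair follicles, markers of keratinocytes and follicles were read beside it. Their summed level was 57.2 to 61.8 CPM with DMSO and 43.6 to 49.2 CPM with Sardomozide. Of 4 tested markers 2 were called lower, Trp63 and Krt14, and 0 higher by edgeR. Over all genes tested, 8.45% were called lower and 7.88% higher. Krt14 went from 3.11 ± 0.163 to 1.82 ± 0.244 CPM (−0.77 ± 0.217 on the log2 scale, edgeR adjusted p = 0.0192). Trp63 made up most of the sum, with 51.1 ± 1.68 and 40.2 ± 2 CPM. The keratin gene Krt1 had no count in any library and Krt5 was at 0.0112 and 0.0652 CPM. The other tested markers, Krt10 (3.57 ± 0.551 and 3.38 ± 0.761 CPM) and Dsg3 (1.42 ± 0.396 and 0.959 ± 0.281 CPM), were not called. The part of these genes, and of the fibroblast markers, in the result for Hr was not tested.

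**Figure D1:**
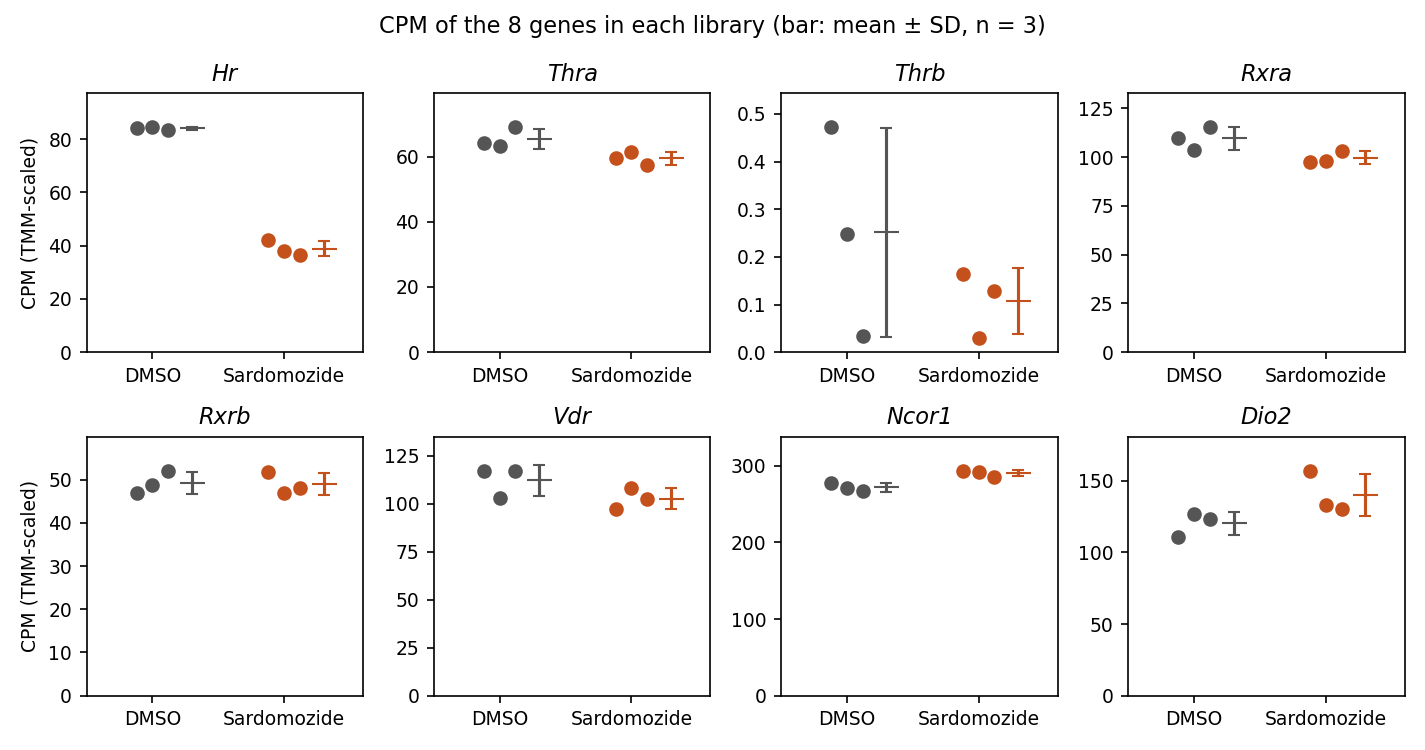
CPM of each of the 8 genes (y axis, from 0) in the DMSO and Sardomozide libraries (x axis), with 1 point per library and the mean ± SD over 3 libraries at the side. Hr separates at 83.4 to 84.5 against 36.5 to 42.2 CPM, whereas the other 7 genes have close or overlapping groups.

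The thyroid hormone receptors were represented almost entirely by Thra. Thra, on chromosome 11 from 98740638 to 98769006, had 64.1, 63.3 and 69 CPM with DMSO and 59.5, 61.4 and 57.4 CPM with Sardomozide. The groups came close without overlapping, and the log2 fold change was −0.14 ± 0.054. Thrb, on chromosome 14 from 17660261 to 18038090, was counted 12, 8 and 1 times in the DMSO libraries and 6, 1 and 4 times after Sardomozide. A count of 0 would allow up to 3 counts, or 0.0822 to 0.118 CPM, and DMSO replicate 3 and Sardomozide replicate 2 lay under that limit. The groups overlapped, and Thrb was too low to be tested. Of all counts on both genes, Thra held between 99.3% and 99.95% in the 6 libraries.

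The Thra locus has a counting limit. Its last exons overlap Nr1d1, a clock repressor gene on the opposite strand, over 263 exonic bases, which is 5.7% of the exonic length of Thra. Whether the authors' counts use strand is not given in the sources used here, so reads in that stretch may belong to either gene. Nr1d1 had 52.5, 48.2 and 56.2 CPM with DMSO and 55.6, 50.8 and 54 CPM with Sardomozide, with overlapping groups. Smaller overlaps with opposite-strand exons lie in Dio2 (Gm26512, 1.72% of exonic length) and Ncor1 (Pigl, 0.64%, and Ttc19, 1 base). Gene-level counts also do not separate the hormone-binding isoform of Thra from the isoform that does not bind hormone.

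The first Thrb promoter window holds the receptor core site, the hexamer that thyroid, retinoid and vitamin D receptors recognise (AGGTCA, searched on both strands). The second Thrb window has 0 core sites. RefSeq windows of 300 bases around annotated starts (GRCm38.p6, each ending 50 bases after the start) matched 6 of the 8 members, with 10 windows in all; Hr and Thra have no entry in the table. The core site was in 2 of the 10 windows and in 16.3% of 32851 windows of all genes. The direct repeat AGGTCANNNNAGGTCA that thyroid receptors prefer, and the repeat AGGTCANNNAGGTCA preferred by the vitamin D receptor, were in 0 of the 10 windows and in 0.0152% and 0.00609% of all. The windows with a core site are shown with the site in capitals, 5′ to 3′ along the gene. They are the first Thrb window (chr14:17660710-17661009, plus strand) and the second Rxra window (chr2:27709042-27709341, plus strand), which holds the site once on each strand.
Thrb: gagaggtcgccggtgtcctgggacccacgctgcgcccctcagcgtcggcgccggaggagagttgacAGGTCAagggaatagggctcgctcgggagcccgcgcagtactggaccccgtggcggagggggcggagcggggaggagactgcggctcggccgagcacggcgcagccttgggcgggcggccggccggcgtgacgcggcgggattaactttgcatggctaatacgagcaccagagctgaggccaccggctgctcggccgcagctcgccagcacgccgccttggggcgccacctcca
Rxra: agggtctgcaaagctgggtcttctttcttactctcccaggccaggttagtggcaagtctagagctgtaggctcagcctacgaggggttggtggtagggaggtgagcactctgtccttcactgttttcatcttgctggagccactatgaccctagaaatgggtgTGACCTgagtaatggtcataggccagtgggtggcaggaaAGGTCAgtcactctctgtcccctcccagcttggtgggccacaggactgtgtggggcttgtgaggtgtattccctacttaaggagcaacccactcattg
A match is a description of these letters, and the counts do not tell which start a transcript used.

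Of the RXR genes, Rxra and Rxrb were measured at length-corrected levels of the same order and Rxrg was close to absent. Rxra, on chromosome 2 from 27676440 to 27762957, had 109.8, 103.6 and 115.3 CPM with DMSO and 97.6, 97.9 and 103.4 CPM with Sardomozide. The lowest DMSO library and the highest Sardomozide library nearly touched, and the log2 fold change was −0.14 ± 0.049. Rxrb, on chromosome 17 from 34031812 to 34038399, had 47, 48.7 and 52.1 CPM and 51.8, 47 and 48 CPM. Its groups lay over each other (log2 fold change −0.01 ± 0.06), and the sign turned when DMSO replicate 3, Sardomozide replicate 2 or Sardomozide replicate 3 was left out. Per kilobase of exons, Rxra made up 61.7 ± 1.06% of the 3 RXR genes with DMSO and 59.6 ± 1.61% with Sardomozide, Rxrb 38.2 ± 1.16% and 40.3 ± 1.73%, and Rxrg 0.142 ± 0.123% and 0.118 ± 0.137%.

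Vdr, the vitamin D receptor gene (chromosome 15, 97854425 to 97910630), had 116.7, 102.8 and 117.1 CPM with DMSO and 97.2, 108.1 and 102.5 CPM with Sardomozide. The groups overlapped because DMSO replicate 2 was low, and the log2 fold change was −0.13 ± 0.054. Ncor1 (chromosome 11, 62316426 to 62458541) had 277.9, 271.5 and 266.5 CPM with DMSO and 293.4, 292.4 and 285.7 CPM with Sardomozide. All Sardomozide libraries lay above the DMSO libraries by a small margin (log2 fold change 0.10 ± 0.041). Ncor1 had the smallest spread of the tested members with Sardomozide, with a coefficient of variation of 1.44%.

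Dio2 (chromosome 12, 90724552 to 90738438) had 111, 126.6 and 123.2 CPM with DMSO and 157.1, 133 and 130.1 CPM with Sardomozide. Sardomozide replicate 1 stood above the others, and the lowest Sardomozide library lay just above the highest DMSO library. The log2 fold change was 0.22 ± 0.073. It was 0.13 without Sardomozide replicate 1, which moved the value by over 1.5 times. Without Sardomozide replicate 3 it was 0.27. In that fit, and with DESeq2, limma-voom or no filter, Dio2 was called higher, though not in the main fit. The Dio2 gene is induced through cyclic AMP in brown fat, and its RefSeq window (chr12:90738989-90739288, minus strand) is shown because it holds the palindromic cyclic AMP element TGACGTCA, in capitals, starting 95 bases before the start. This motif was searched after the sequence had been seen. It was in 1 of the 10 member windows and in 1.79% of all windows.
Dio2: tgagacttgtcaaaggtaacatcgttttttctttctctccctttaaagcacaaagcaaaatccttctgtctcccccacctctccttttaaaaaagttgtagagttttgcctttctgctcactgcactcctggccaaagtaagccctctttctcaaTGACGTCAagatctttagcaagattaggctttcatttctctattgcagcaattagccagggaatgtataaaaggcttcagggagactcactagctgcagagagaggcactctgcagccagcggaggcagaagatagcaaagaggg
The window has no core receptor site, which says only that these letters are not in it.

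Of the 8 genes, 7 were abundant enough to enter the fit, all but Thrb. Over all 13076 genes tested, 16.3% were called, 7.88% higher and 8.45% lower, and of the 7 genes Hr was the 1 past that threshold. Groups did not overlap for 5 of the 7, namely Hr, Thra, Rxra, Ncor1 and Dio2, and for 33.5% of all tested genes. Nothing is read from these counts, since the same contrast chose the genes.

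Compared per kilobase of exons, the levels with DMSO fell into steps. Ncor1 (21.2 ± 0.444), Dio2 (20.7 ± 1.41), Rxra (20.1 ± 1.07) and Vdr (19.9 ± 1.44 CPM per kilobase) overlapped from neighbour to neighbour. Thra followed at 14.2 ± 0.669, clear of Vdr above and of Rxrb below. Rxrb (12.4 ± 0.653) and Hr (12.2 ± 0.0819) overlapped, and Thrb lay at 0.034 ± 0.0296 CPM per kilobase. With Sardomozide, Dio2 (24.1 ± 2.55) and Ncor1 (22.7 ± 0.328) overlapped at the top, clear of Rxra (18.2 ± 0.597) and Vdr (18.2 ± 0.965). Thra (12.9 ± 0.437) now overlapped Rxrb (12.3 ± 0.639), and Hr stood alone at 5.63 ± 0.422 CPM per kilobase. Lengths are the joined exons of all annotated transcripts of a gene, so levels of genes with many transcripts, such as Ncor1 with 25, may be understated.

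**Figure D2:**
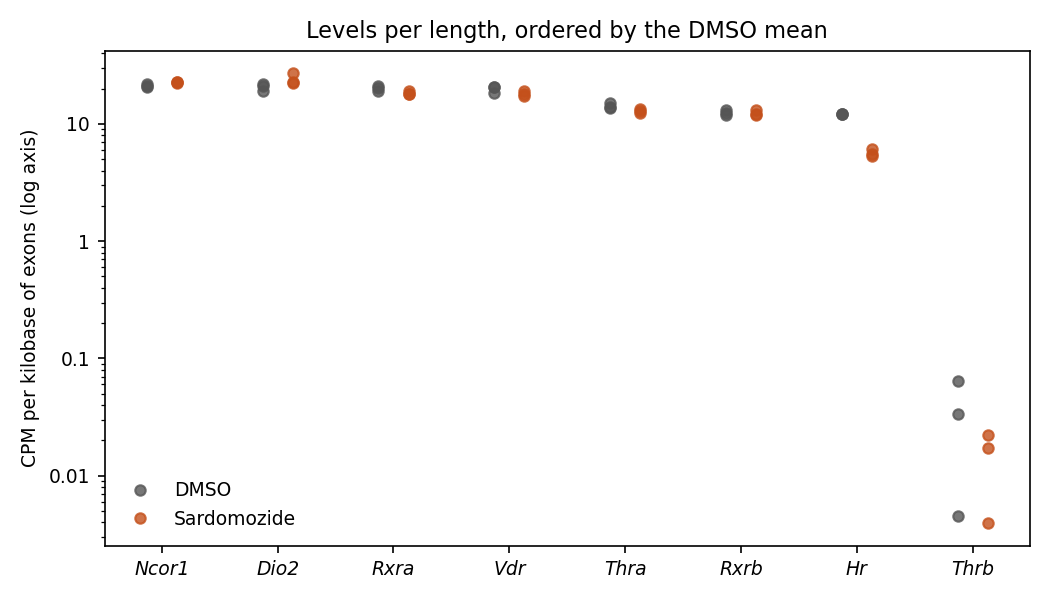
Level of each gene in CPM per kilobase of exons (y axis, log scale) for the 8 genes (x axis), ordered by the DMSO mean, with 1 point per library. Hr drops from about the level of Rxrb to 5.63 ± 0.422, and Thrb lies far under the other genes in both groups.

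Per kilobase, the ratio of Rxra to Rxrb was 1.7, 1.55 and 1.61 with DMSO and 1.37, 1.51 and 1.57 with Sardomozide, and the groups overlapped.

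The corepressor complexes around these receptors were then read from a list of 13 genes without the members. For this and the later lists, the shares over all genes tested were 7.88% called higher and 8.45% lower. All 13 were tested, 3 were called lower, 0 higher and 10 were not called, with a median log2 fold change of 0.02 beside −0.001 over all genes tested. Among the genes called lower were Tbl1x, a WD-repeat subunit of the NCoR complex (60.1 ± 2.55 to 53.1 ± 2.09 CPM, −0.18 ± 0.055 on the log2 scale, adjusted p = 0.0333), and the deacetylase gene Hdac1 (57.1 ± 1.79 to 50.9 ± 1.01 CPM, −0.17 ± 0.054, adjusted p = 0.037). Hdac3, the catalytic subunit that NCoR1 activates, had 61.7 ± 2.82 and 59.6 ± 2.12 CPM and was not called. EdgeR's unadjusted p was under 0.05 for 3 higher genes, while DESeq2 and limma-voom each called 0 higher and 3 lower. With the replicate number as a block, or without DMSO replicate 1, DMSO replicate 3 or Sardomozide replicate 3, 0 genes of the list were called lower (adjusted p from 0.0578 to 0.167 for Tbl1x and from 0.0607 to 0.161 for Hdac1). Tbl1x was also not called without Sardomozide replicate 1 (adjusted p = 0.11), nor Hdac1 when DMSO replicate 2 or Sardomozide replicate 2 was left out (0.0676 and 0.0646).

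Coactivators, which replace the corepressors when hormone binds, included 3 genes called higher and 1 called lower of 13 tested (median log2 fold change 0.03). Thrap3, an RNA-processing factor named for thyroid receptor association, rose from 171.8 ± 3.23 to 195.9 ± 9.7 CPM (0.19 ± 0.045 on the log2 scale, edgeR adjusted p = 0.00571). Ncoa2, a p160 coactivator gene, rose from 86.7 ± 1.38 to 98.9 ± 3.77 CPM (0.19 ± 0.047, adjusted p = 0.00764). Med1, the Mediator subunit that contacts nuclear receptors, rose from 110.4 ± 2.93 to 123 ± 3.23 CPM (0.16 ± 0.044, adjusted p = 0.0187). The acetyltransferase gene Kat2b fell from 58.2 ± 0.63 to 51.3 ± 2.16 CPM (−0.18 ± 0.054, adjusted p = 0.0239). Without DMSO replicate 1, 2 or 3, or without Sardomozide replicate 1, Kat2b was not called (adjusted p = 0.077, 0.0521, 0.0801 and 0.0821). Med1 was not called when DMSO replicate 2, DMSO replicate 3 or Sardomozide replicate 3 was left out (adjusted p = 0.0633, 0.0939 and 0.0842).

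Among 14 genes of receptors that pair with RXR, together with Rxrg, 9 were tested, 2 fell and 0 rose by edgeR (median log2 fold change −0.008). At an unadjusted p under 0.05, 0 were higher and 3 lower, and DESeq2 and limma-voom gave 0 higher and 2 lower. Both genes that fell encode retinoic acid receptors. Rarg had 101.4, 99.5 and 107.3 CPM with DMSO and 84.3, 84 and 81.3 CPM with Sardomozide (−0.30 ± 0.047, edgeR adjusted p = 0.000143). Rara went from 65.8 ± 2.22 to 57.4 ± 2.26 CPM (−0.20 ± 0.053, adjusted p = 0.0158). Rara lost its call when DMSO replicate 1, DMSO replicate 3 or Sardomozide replicate 3 was left out (adjusted p = 0.0793, 0.0627 and 0.0707).

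Relatives and partners of hairless gave 1 gene called higher and 1 lower of 6 tested (median log2 fold change −0.009). Kdm3a, which encodes a histone demethylase of the same family, rose from 70 ± 0.285 to 79 ± 2.37 CPM (0.18 ± 0.048, edgeR adjusted p = 0.0162). Rorb, a ROR receptor gene at a low level, fell from 2.18 ± 0.282 to 1.04 ± 0.289 CPM (−1.06 ± 0.289, adjusted p = 0.0154). The other family members Kdm3b and Jmjd1c, with log2 fold changes of 0.04 ± 0.049 and −0.05 ± 0.043, were not called; these and Hdac3 were named after their values were seen. Kdm3a was not called without DMSO replicate 1 or 3 (adjusted p = 0.0596 and 0.057), nor Rorb when DMSO replicate 1, DMSO replicate 2 or Sardomozide replicate 1 was left out (0.071, 0.0529 and 0.0632).

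Of 20 genes of thyroid hormone transport, activation and selenoprotein synthesis, 13 were tested, 1 was called higher, 0 lower and 12 were not called by edgeR, with a median log2 fold change of 0.07. Sephs2, a selenophosphate synthetase gene needed to make selenoproteins such as the deiodinases, rose from 19 ± 0.549 to 23.9 ± 0.12 CPM (0.33 ± 0.076, edgeR adjusted p = 0.00469). At an unadjusted p under 0.05, 2 were higher and 0 lower, and DESeq2 and limma-voom gave 1 higher and 0 lower. Without Sardomozide replicate 1, 2 were called higher. Of the deiodinase genes other than Dio2, Dio1 had no count in any library, and Dio3 reached 0.0335 ± 0.0581 CPM with DMSO and no count with Sardomozide. Dio1 and Dio3 were named after their values were seen.

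Genes known to respond to thyroid hormone in muscle and other tissues gave 8 called lower, 1 called higher and 8 not called, of 17 tested. When 1 library was left out, 6 to 9 were called lower, and 7 without DMSO replicate 1. Their median log2 fold change was −0.21, beside −0.001 over all genes tested. Of all genes tested, 8.45% were called lower and 7.88% higher. The list joins genes that the hormone raises and genes that it lowers, such as Myh7, so its direction is not a measure of hormone action. Falls of some of its muscle genes, Atp2a1 and Myh2 among them, were known from these data when the list was written. Ucp2, which encodes a mitochondrial carrier, went from 213.7 ± 8.13 to 173.1 ± 11.9 CPM (−0.31 ± 0.049, edgeR adjusted p = 0.000225). Cpt1a, a gene of fatty acid entry into mitochondria, went from 42.7 ± 2.74 to 34.4 ± 0.934 CPM (−0.31 ± 0.064, adjusted p = 0.00196). Atp2a1, the calcium pump of fast fibres, and Myh2, a fast myosin, fell with log2 fold changes of −0.27 and −0.59. Me1, Myh6 and Myh7, outside the naming rule, were also called lower, and the myosin genes Myh6 and Myh7 share sequence, so their counts are uncertain.

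Ppargc1a, the gene of the mitochondrial coactivator PGC-1α, was the single gene of that list called higher. It had 2.4, 2.74 and 3.02 CPM with DMSO and 5.29, 5.87 and 5.51 CPM with Sardomozide (1.03 ± 0.167, edgeR adjusted p = 0.000227). Klf9, like Hr a direct thyroid receptor target in many cells, was not called. Klf9 had 58, 54.7 and 60.6 CPM with DMSO and 55.8, 51.4 and 53.2 CPM with Sardomozide, with overlapping groups (−0.11 ± 0.057, edgeR adjusted p = 0.199). It was named after its values were seen. The members were selected around the difference of Hr, so its −1.11 and the −0.11 of Klf9 on the log2 scale are a description. The difference between these genes was not tested.

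Of 19 vitamin D metabolism and response genes, 9 were tested. Beside 7.88% higher and 8.45% lower over all genes tested, 4 of the 9 were called higher and 1 lower (median log2 fold change 0.22). The near copies Bglap and Bglap2 were both among those called higher, so the count is not a measure of vitamin D action. DESeq2 called 3 higher and 1 lower, with no adjusted p for Bglap, and limma-voom 4 and 1. Cyp24a1, the vitamin D catabolic gene that the receptor induces most strongly, had no count in any library; it was named after its values were seen. Bglap2, an osteocalcin gene, rose from 2.56 ± 0.346 to 6.73 ± 0.158 CPM (1.39 ± 0.161, edgeR adjusted p = 6.91e-06). Its near copy Bglap was counted 1, 4 and 1 times with DMSO and 12, 14 and 14 times after Sardomozide, and reads of the copies cannot be assigned with certainty. Igfbp3, which encodes a growth factor binding protein, rose from 34.8 ± 3.04 to 44.3 ± 1.05 CPM (0.35 ± 0.066, adjusted p = 0.00105), and the cell cycle inhibitor gene Cdkn1a rose from 1899 ± 69.9 to 2214 ± 43.2 CPM (0.22 ± 0.045, adjusted p = 0.00178). Spp1, the osteopontin gene, fell from 808.5 ± 92 to 532 ± 50.6 CPM (−0.60 ± 0.098, adjusted p = 0.00686). The Spp1 call was lost without Sardomozide replicate 1 (adjusted p = 0.0686), and the call of Bglap ended with no filter (adjusted p = 0.051) and when DMSO replicate 1 or 3 or Sardomozide replicate 2 or 3 was left out (0.0928, 0.102, 0.0596 and 0.0759). Runx2, in the osteoblast marker list, had 52.9 ± 0.759 and 49.3 ± 0.338 CPM, and the other markers Ibsp, Sp7 and Alpl were at or near 0. The part of osteoblast-like cells or fibroblasts in these values was not tested.

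**Figure D3:**
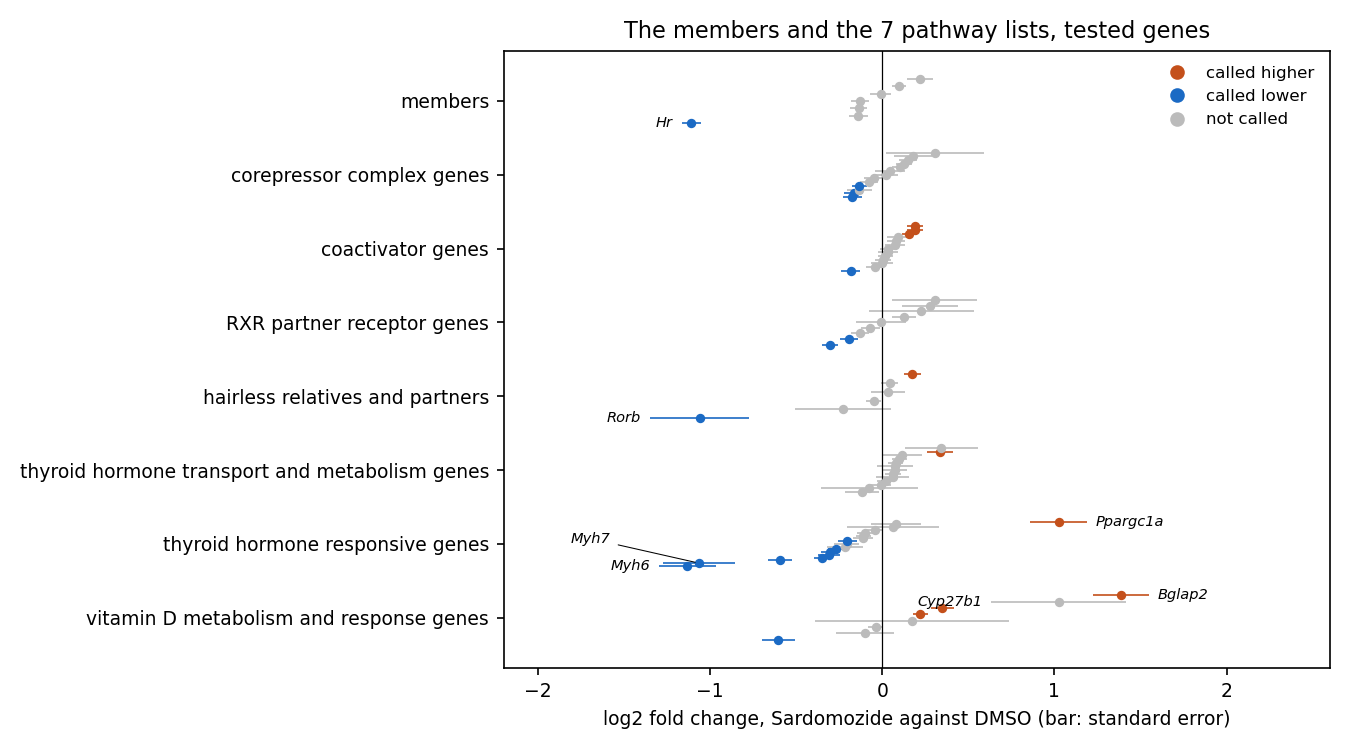
Log2 fold change of Sardomozide against DMSO (x axis, with standard error) for every tested gene of the members and of the 7 lists (rows), coloured by edgeR's call. Hr is at −1.11 ± 0.057 among members that otherwise lie between −0.14 and 0.22, and Bglap is left out because of its low counts.

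The genes whose profiles over the 6 libraries lay closest to that of Hr were found by the root mean square difference of log2 CPM, each centred on its own mean, among 10286 other genes that averaged 2 or more in log2 CPM. Predicted genes, clone names and pseudogenes had been left out of that set. Of the 5 closest, 4 are given here: the junction genes Colq (0.0901) and Ache (0.0979), the muscle LIM protein gene Csrp3 (0.101) and the annexin gene Anxa8 (0.104). Anxa8 had 237.8, 219.3 and 216.4 CPM with DMSO and 127.5, 120.1 and 105.9 CPM with Sardomozide. Since the measure is led by the difference between the groups, these are genes that were lower by about the same fold as Hr, with log2 fold changes from −0.93 for Anxa8 to −1.26 for Colq.

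**Figure D4:**
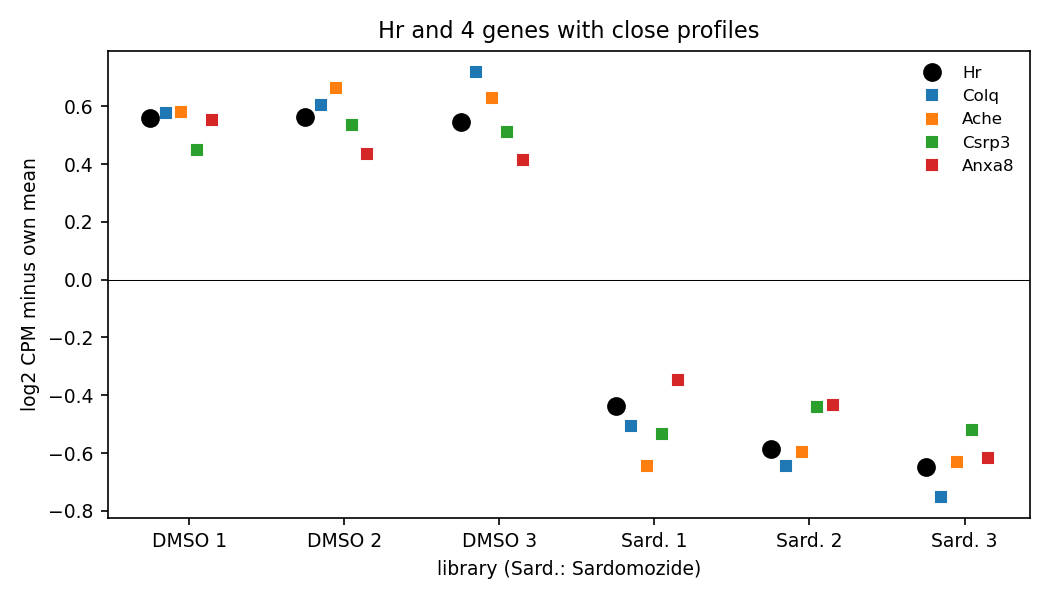
Log2 CPM of Hr and of 4 of the closest genes, each minus its own mean over 6 libraries (y axis), in every library (x axis). All 5 genes lie above 0 in the DMSO libraries and under 0 in the Sardomozide libraries.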

How the data were processed

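RNA of 6 C2C12 myotube libraries was sequenced (paired reads, Illumina NovaSeq, per the labels' protocols). The authors deposited raw counts per gene symbol, 1 table per library, without normalization. STAR, StringTie, DESeq2, GRCm38 and mm10 appear in the submitters' processing notes; their versions and roles, the annotation, the strand setting and the treatment of multi-mapping reads do not appear in the sources used here. Groups came from the titles. Genes were filtered with filterByExpr (minimum count 10, total 15), scaled by TMM and tested with edgeR 4.0.16 in R 4.3.3 (robust quasi-likelihood, treatment only, two-sided), with Benjamini-Hochberg adjustment over all 13076 genes and a threshold of 0.05. Standard errors are the log2 fold change divided by the root of F. Depth was 25496323 to 36709804 counts; 3 counts, the limit that a count of 0 allows, are 0.0822 to 0.118 CPM, for counting error only. Coordinates, exon lengths and overlaps came from GENCODE M21 (GRCm38), promoters from RefSeq (GRCm38.p6).

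The members and lists were chosen with earlier results of these data known. Named genes were all members, from each list the called genes with the smallest adjusted p (up to 6), and the 5 genes closest to Hr in profile; exceptions are stated. Some genes stay in the fit and the list counts but are not reported here. Alternatives were RLE and upper-quartile scaling, DESeq2 1.42.0, limma-voom (limma 3.58.1), no filter, at least 1 CPM in every library, the replicate number as a block, and each library left out. The fit was also run on simulated counts drawn with the spread estimated from these libraries. Its outcome is not given here, and no result rests on it.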

Additional observations from a re-analysis of the deposited data

How the results depend on the processing

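The log2 fold change of Hr was −1.17 to −1.07 without a library. Over all genes, 620 to 927 were called higher and 706 to 1025 lower without a library, and the lowest of each came without DMSO replicate 1. Calls of the members are a description, because this contrast chose them. DESeq2, limma-voom and no filter each called 1 member higher, and no filter called 2 lower. Without a library, 0 to 1 were called higher and 1 to 3 lower. The member called higher was Dio2 in each case. Beside Hr, Rxra was called lower with no filter, and Rxra and Vdr without DMSO replicate 2. The log2 fold change of Rxrb ran from −0.053 to 0.032 without a library, and turned positive without DMSO replicate 3 (0.032), Sardomozide replicate 2 (0.019) and Sardomozide replicate 3 (0.004). Corepressor genes gave 1 called higher with no filter, 0 called lower with the replicate block, and 0 to 1 higher and 0 to 2 lower without a library. Coactivators gave 2 to 3 higher and 0 to 1 lower, RXR partners 1 to 2 lower, and hairless relatives 0 to 1 in each direction without a library. The strict filter called 0 hairless relatives lower, since Rorb was not tested there. Transport genes gave 1 to 2 higher and vitamin D genes 0 to 1 lower without a library. Fits without a library have fewer samples; the cause of other differences was not tested.

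The replicate block changed the calls of Tbl1x and Hdac1 (adjusted p = 0.0627 and 0.0607) and of no other gene reported here under the naming rule, and called 1820 genes instead of 2135. Deviations of same-numbered libraries from their group means had correlations of 0.022, −0.023 and −0.018, so the numbers were not taken as pairs. Over these genes and the alternatives, 371 values kept direction and call, 32 lost the call, 7 gained it and 3 reversed. Depth limits Thrb, Bglap and Rorb.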
